A study of Mus musculus with 6 samples.

Results

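Lysosomes are the acidic compartments in which cells digest proteins, lipids and sugars, and autophagy is the route by which parts of the cell's own interior are enclosed in membrane and delivered to them. A set of 34 genes of this system, of 56748 genes in the deposited table, was described in CD4 T cells cultured under Treg polarizing conditions with an antisense oligonucleotide (ASO). The members are the genes of a written list of known lysosome and autophagy genes, given by name, and earlier results of these data were known when it was drawn up. They comprise the transcription factors *Tfeb*, *Tfe3* and *Mitf*, lysosomal proteases, glycosidases and saposins, lysosomal membrane proteins, subunits of the proton pump, the ATG8 family with a receptor, and genes of autophagy initiation and conjugation. TFEB, TFE3 and MITF are related basic helix-loop-helix proteins that bind E-boxes in the promoters of many lysosomal and autophagy genes. When nutrients are plentiful, the kinase mTORC1 phosphorylates TFEB and TFE3 and keeps them in the cytoplasm, and it also phosphorylates ULK1, the kinase that starts autophagy. In T cells, autophagy removes organelles, and autophagy genes are needed for Treg stability in mice.

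The libraries were made from polyA RNA of unsorted CD4 T cells, for which the labels give splenocytes as the source and WT as the genotype. By the study's methods, naïve CD4 cells came from spleen and lymph nodes of C57BL/6 mice aged 6 to 10 weeks, were isolated by negative selection and were stimulated through CD3 and CD28 with IL-2, TGF-β and antibodies to IFNγ and IL-4. There were 3 libraries with a scrambled ASO and 3 with an ASO against *Pgam*, which encodes a glycolytic enzyme, each at 10 μM from day 0 for 3 days; the scrambled-labelled libraries are called S1, S2 and S3 by replicate number, and the *Pgam*-labelled ones P1, P2 and P3. Counts estimated by Kallisto summed to 17588755, 18032805 and 16231127 for S1, S2 and S3 and 16589933, 15860476 and 16803881 for P1, P2 and P3, and values below are listed in that order. The study describes its replicates as biological, and since the labels do not say whether they came from separate animals, p-values measure the spread between these libraries. Expression is given as CPM, a gene's counts brought to a common library size with TMM factors, and log2FC is the log2 fold change of the *Pgam*-labelled over the scrambled-labelled libraries, with its standard error as SE.

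The targets were examined first, as a check of the labels. *Pgam1* (ENSMUSG00000011752, chromosome 19, 41911923 to 41918660 on GRCm38) had 599.6, 478 and 707 CPM in the scrambled-labelled libraries, then 658, 661 and 707 CPM in the *Pgam*-labelled ones. The groups overlapped, with a log2FC of 0.18 (SE 0.13) and an adjusted p of 0.331 by the quasi-likelihood test of edgeR with Benjamini-Hochberg adjustment. *Pgam2* (ENSMUSG00000020475, chromosome 11, 5801640 to 5803733) had 5.23, 6.75 and 2.85 CPM against 2.98, 2.69 and 2.60 CPM. S3 lay within the range of the other label, and the log2FC was -0.84 (SE 0.31; edgeR adjusted p 0.0854). With each library left out, the log2FC of *Pgam2* ran from -1.11 without S3 (edgeR adjusted p 0.0144) to -0.56 without S2 (0.286), and that of *Pgam1* from 0.047 without S2 to 0.33 without S3. Without the filter on low counts, the edgeR adjusted p of *Pgam2* was 0.0292. Much of *Pgam1* (37.1% of its 31-base stretches) is also found elsewhere, *Pgam1-ps2* being the largest match, and Kallisto divides reads among such genes. Neither target passed the test, so each direction below is given between labels. This check covers RNA, and PGAM protein was not analysed here.

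The members that passed the test came from several steps of the system, and nearly all of them were lower in the *Pgam*-labelled libraries. All 34 members passed the filter on low counts. Of these, 7 were called lower (*Ctsa*, *Ctss*, *Mcoln1*, *Sqstm1*, *Map1lc3b*, *Wipi1* and *Ulk1*) and 1 was called higher (*Gusb*) when edgeR's adjusted p had to be under 0.05. This is 20.6% of members lower, where 9.15% of the 14936 genes tested were lower, and 2.94% higher, where 8.03% of all genes were higher. The other 26 were not called. The log2FC was negative in 24 members and positive in 10, with a median of -0.13 and a range from -1.57 to 0.51, while the median of all tested genes was -0.0061. With RLE factors, library size alone, DESeq2 or limma-voom the members' median stayed between -0.17 and -0.12. Every library of 1 label lay below every library of the other in 12 members that were lower with the *Pgam* ASO, or 35.3%, where 19.8% of all tested genes did so. The reverse held in 2 members, or 5.88%, where 19.6% of all tested genes did so. Summed over the 34 members, expression was 2417, 2396 and 2468 CPM in the scrambled-labelled libraries and 2211, 2255 and 2278 CPM in the *Pgam*-labelled ones. In bulk RNA, fewer cells of a type and less RNA per cell cannot be told apart.

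**Figure D1:**
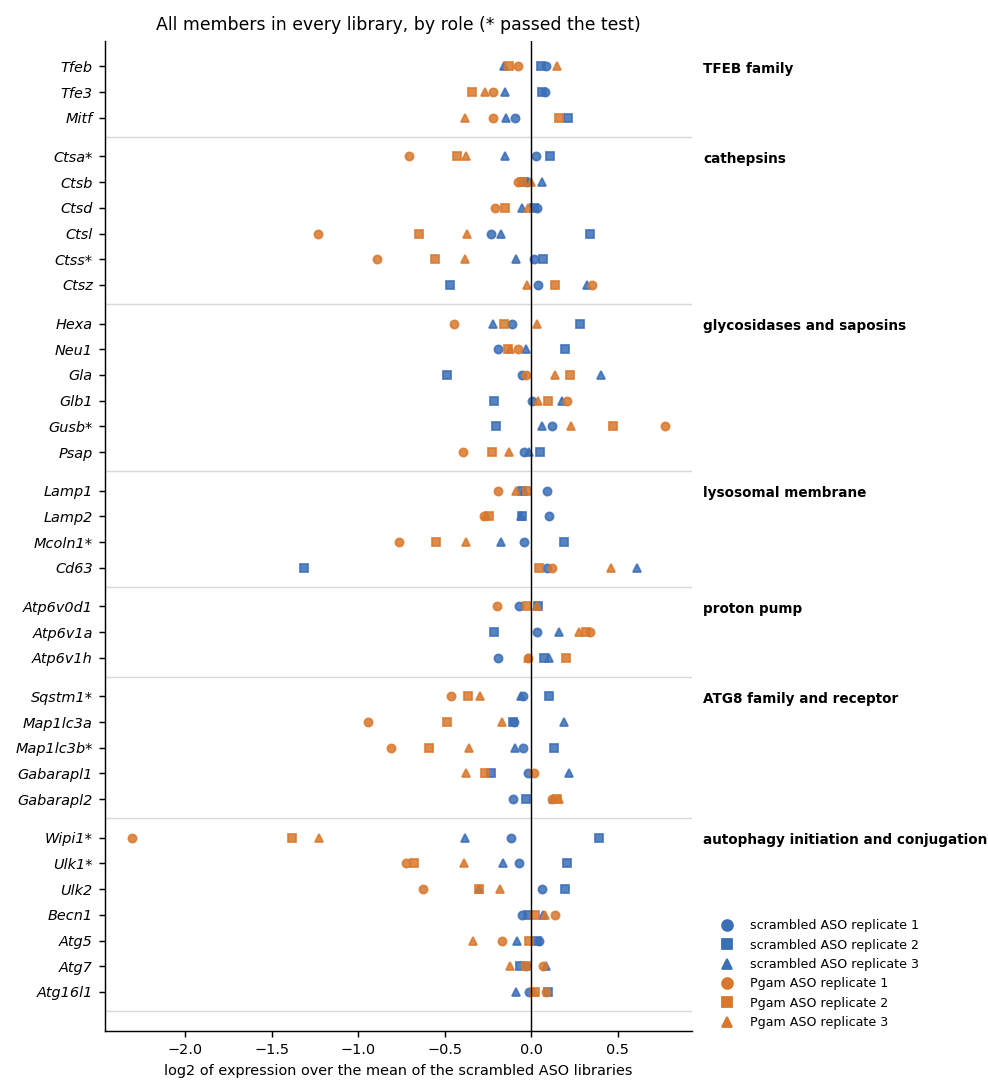
Log2 of the expression of each of the 34 members in each library over the mean of the 3 scrambled-labelled ones (x axis), with members grouped by role (y axis), scrambled-labelled libraries in blue, *Pgam*-labelled ones in orange and an asterisk at the 8 members that passed the test. *Wipi1* lay farthest to the left, and *Gusb* was the only marked member to the right.

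The number of calls changed with the library left out, while each called member kept the sign of its log2FC in every such fit. Without S1, or without P2, edgeR called 0 members at an adjusted p under 0.05, and over all genes the calls went from 2565 to 620 and 391. At an unadjusted p under 0.05, those fits still had 9 and 8 members lower and 2 higher in each, compared to 12 lower and 2 higher with all 6 libraries. Of all genes, 14.3% and 13.2% were lower and 12.5% and 11.5% higher at that threshold in those fits, and 17.7% lower and 17.2% higher with all 6. Without P1, 2 members were called lower (*Ctss* and *Map1lc3b*) and 0 higher. Without S2, 6 were lower, *Mcoln1* and *Gusb* being the calls lost. Without S3, 9 were lower and 2 higher, with *Tfe3*, *Ulk2* and *Atp6v1a* gained, and without P3 8 were lower, with *Psap* gained. S1 and P2 were the highest or lowest of their label in 0 of the 7 lower members, and without them the log2FCs stayed close to those with all 6 libraries (*Ctsa* -0.49 and -0.53, against -0.50). The median log2FC of the members stayed between -0.17 and -0.084 with each library left out in turn. With all 6 libraries, DESeq2 called the same 7 members lower and 2 higher (*Gusb* and *Atp6v1a*), and limma-voom called the same 7 lower and the same 1 higher.

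The transcription factors came first in the order of roles, and 0 of the 3 passed edgeR's test. In DESeq2 and limma-voom the count was also 0, and 1 of the 3 (*Tfe3*) had an unadjusted p under 0.05 in edgeR. *Tfeb* (ENSMUSG00000023990, chromosome 17, 47737030 to 47792419) had 22.1, 21.7 and 18.6 CPM in the scrambled-labelled libraries, with 19.8, 19.1 and 23.1 CPM in the *Pgam*-labelled ones. Its groups overlapped, and P3 was the highest of the 6 libraries. Its means were 20.8 ± 1.88 and 20.6 ± 2.15 CPM (SD, n = 3). The log2FC of *Tfeb* was -0.013 (SE 0.13; edgeR adjusted p 0.955), and it ranged from -0.095 to 0.041 with each library left out in turn. *Tfe3* (ENSMUSG00000000134, chromosome X, 7762560 to 7775202) had 48.0, 47.4 and 40.9 CPM against 39.0, 35.8 and 37.7 CPM. All 3 *Pgam*-labelled libraries were below those labelled scrambled ASO, of which S3 came nearest. With means of 45.4 ± 3.93 and 37.5 ± 1.61 CPM (SD, n = 3), its log2FC was -0.28 (SE 0.10; edgeR adjusted p 0.0770), and the adjusted p was 0.0369 without S3. *Mitf* (ENSMUSG00000035158, chromosome 6, 97807052 to 98021349), better known from pigment cells and osteoclasts, had low expression, at 2.31, 2.86 and 2.23 CPM against 2.11, 2.76 and 1.89 CPM. Its libraries overlapped throughout, with means of 2.47 ± 0.345 and 2.25 ± 0.450 CPM (SD, n = 3) and a log2FC of -0.13 (SE 0.28; edgeR adjusted p 0.766).

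Among 5 tested regulators of this family on a separate list, 0 passed edgeR's test in either direction, and 0 passed DESeq2 or limma-voom. These are *Flcn*, *Fnip1* and *Fnip2*, which encode folliculin and its partners, and *Rragc* and *Rragd*, which encode the Rag GTPases that bring TFEB to the lysosome. At an unadjusted p under 0.05, 1 of them was lower (*Rragd*, log2FC -0.34, edgeR adjusted p 0.0803). Without S2 edgeR called *Rragd* lower, and without S3 it called *Flcn* lower instead. The median log2FC of the 5 was 0.15. *Tfec*, a further relative of TFEB, did not pass the filter, with at most 0.0642 CPM in any library. *Rragd*, *Flcn* and *Tfec* were singled out after their values were seen.

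Of the 6 members that encode cathepsins, 2 were called lower (33.3%, beside 9.15% of all tested genes). *Ctsa* (ENSMUSG00000017760, chromosome 2, 164832873 to 164841032) encodes cathepsin A, a serine carboxypeptidase that also protects neuraminidase and β-galactosidase in the lysosome. It had 94.1, 99.6 and 82.9 CPM in the scrambled-labelled libraries and 56.5, 68.5 and 70.9 CPM in the *Pgam*-labelled ones. S3 and P3 came nearest to each other, and the groups did not overlap. The means were 92.2 ± 8.51 and 65.3 ± 7.70 CPM (SD, n = 3), 1.41-fold lower, with a log2FC of -0.50 (SE 0.11; edgeR adjusted p 0.0174). The adjusted p of *Ctsa* was 0.0725 without S1, 0.0572 without P1 and 0.0765 without P2, with log2FCs of -0.57 to -0.40 over all 6 such fits. Its transcripts share 14.6% of 31-base stretches with other genes, none of which holds 10% or more. *Ctss* (ENSMUSG00000038642, chromosome 3, 95526786 to 95556403) encodes cathepsin S, a cysteine protease best known for trimming the invariant chain of MHC class II. It had 97.7, 102 and 91.0 CPM against 52.2, 65.8 and 74.3 CPM. The groups were again apart, with the widest spread among the *Pgam*-labelled libraries. The means of *Ctss* were 96.8 ± 5.37 and 64.1 ± 11.2 CPM (SD, n = 3), 1.51-fold lower, with a log2FC of -0.59 (SE 0.12; edgeR adjusted p 0.0138), and the adjusted p was 0.0580 without S1 and 0.0735 without P2. With each library left out, the log2FC of *Ctss* was -0.71 to -0.46.

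The remaining 4 cathepsins did not pass the test. *Ctsl* had the largest difference among them, at 4.83 ± 1.11 and 2.95 ± 0.846 CPM (SD, n = 3), with a log2FC of -0.71 (edgeR adjusted p 0.106) and groups that did not overlap. *Ctsb*, *Ctsd* and *Ctsz* had log2FCs of -0.043, -0.12 and 0.16. Counts of *Ctsb* and *Fdft1*, which share 12.4% of the 31-base stretches of *Ctsb*, gave a log2FC of 0.12 when summed.

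Of 10 genes on the list of other proteases, 9 were tested and 6 were called lower (66.7%), beside 9.15% of all tested genes, with all 9 log2FCs negative and a median of -0.67. In edgeR the 6 became 3 without S1, 4 without P1 and 2 without P2. *Ctsf*, which encodes the cysteine protease cathepsin F, averaged 6.43 ± 3.27 and 1.61 ± 0.730 CPM (SD, n = 3), with a log2FC of -1.99 (edgeR adjusted p 0.0156). *Ctsw*, a protease known from cytotoxic lymphocytes and the endoplasmic reticulum, averaged 25.2 ± 1.59 and 10.2 ± 0.721 CPM (SD, n = 3), a log2FC of -1.30 (edgeR adjusted p 4.43e-04). *Ctso*, for cathepsin O, was 2.15-fold lower, a log2FC of -1.10 (edgeR adjusted p 0.0132). With each library left out in turn, the adjusted p of *Ctsw* was at most 0.00980. The call of *Ctsf* was lost in edgeR at 0.0568 without P1 and 0.0870 without P2, and that of *Ctso* at 0.0617 without S1 and 0.0735 without P2. The log2FC stayed from -2.41 to -1.51 for *Ctsf* and -1.30 to -0.96 for *Ctso*. Members and others together gave 8 of 15 tested proteases lower (53.3%).

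Glycosidases and saposins gave the single member that was called higher, 1 of 6 (16.7%), beside 8.03% of all tested genes. *Gusb* (ENSMUSG00000025534, chromosome 5, 129989011 to 130003049) encodes β-glucuronidase, which removes glucuronic acid from glycosaminoglycans. It had 66.8, 53.5 and 64.2 CPM in the scrambled-labelled libraries and 105, 85.5 and 72.2 CPM in the *Pgam*-labelled ones. P3 lay just above S1, and P1 was the highest. The means were 61.5 ± 7.05 and 87.6 ± 16.6 CPM (SD, n = 3), 1.42-fold higher, with a log2FC of 0.51 (SE 0.14; edgeR adjusted p 0.0343). The adjusted p of *Gusb* was 0.0772 and 0.0945 without S1 and S2, and 0.112 and 0.116 without P1 and P2, with log2FCs of 0.36 to 0.64 over the 6 fits. The other 5 members of the role were not called, with log2FCs from -0.25 in *Psap*, the precursor of the saposins that present lipids to hydrolases, to 0.12 in *Gla*, for α-galactosidase A. *Psap* had the highest CPM of all members, 310.1 ± 10.1 CPM (SD, n = 3) against 262 ± 23.6 CPM (SD, n = 3), and its groups did not overlap (edgeR adjusted p 0.0790, and 0.0499 without P3). *Hexa*, *Neu1*, *Gla* and *Glb1* had groups that overlapped. The median log2FC of the 6 was 0.0022 and turned to -0.033 with library size alone, so no direction is given for the role.

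On the list of 27 further hydrolases, 5 were called lower (18.5%) and 1 higher (3.70%), beside 9.15% and 8.03% of all tested genes. The median log2FC of the 27 was -0.16. In edgeR the 5 lower became 0 without S1, P1 or P2 (9, 8 and 8 at an unadjusted p under 0.05), 2 without S2 and 8 without P3. *Idua*, for α-L-iduronidase, had a log2FC of -0.60 (edgeR adjusted p 0.0441) and was not called by limma-voom. *Gm2a*, the activator that presents GM2 ganglioside for breakdown, averaged 254 ± 23.3 and 175 ± 33.4 CPM (SD, n = 3; log2FC -0.53, edgeR adjusted p 0.0265). *Gm2a* thus fell while *Hexa* was not called, at a log2FC of -0.18. The gene called higher was *Asah1*, for acid ceramidase, at 36.0 ± 2.24 and 45.3 ± 1.16 CPM (SD, n = 3; log2FC 0.33, edgeR adjusted p 0.0349). With single libraries left out these 3 calls were lost in edgeR, while the log2FC stayed from -0.71 to -0.40 for *Idua*, -0.67 to -0.40 for *Gm2a* and 0.29 to 0.39 for *Asah1*. For *Idua* the adjusted p was 0.0906 without S1, 0.143 without S2, 0.126 without P1 and 0.170 without P2. For *Gm2a* it was 0.0848 without S1, 0.0775 without P1 and 0.113 without P2, and for *Asah1* 0.125 without S1, 0.0945 without S2, 0.0788 without P1, 0.137 without P2 and 0.0539 without P3.

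In the lysosomal membrane, 1 of 4 members was called lower (25.0%, beside 9.15% of all tested genes). *Mcoln1* (ENSMUSG00000004567, chromosome 8, 3500457 to 3515232) encodes TRPML1, the channel that releases calcium from the lysosome and through calcineurin activates TFEB. It had 41.5, 48.9 and 37.9 CPM in the scrambled-labelled libraries, with 25.1, 29.3 and 32.9 CPM in the *Pgam*-labelled ones. S2 was the highest and P1 the lowest, with no overlap. The means were 42.8 ± 5.58 and 29.1 ± 3.88 CPM (SD, n = 3), 1.47-fold lower, with a log2FC of -0.56 (SE 0.13; edgeR adjusted p 0.0223). The adjusted p of *Mcoln1* was 0.0703 and 0.0535 without S1 and S2, and 0.0748 and 0.0992 without P1 and P2, with log2FCs of -0.65 to -0.45 over the 6 fits. The structural membrane proteins differed less. *Lamp1* had a log2FC of -0.10 (edgeR adjusted p 0.425) and *Lamp2* one of -0.26 (edgeR adjusted p 0.0666), with no overlap between groups for *Lamp2*, which passed with library size alone (0.0468). *Cd63*, a tetraspanin of late endosomes, was hardly detected, at 0.685 ± 0.394 CPM (SD, n = 3) and 0.799 ± 0.129 CPM (SD, n = 3), too few counts to read a difference.

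Of 18 other genes of the lysosomal membrane and of enzyme delivery, 3 were called lower (16.7%) and 0 higher. Over all tested genes these shares were 9.15% and 8.03%. The number higher was also 0 in DESeq2, in limma-voom and at an unadjusted p under 0.05 in edgeR. The 3 lower became 1 without P2 and 5 without S3. *Igf2r*, the mannose 6-phosphate receptor that carries new hydrolases to the lysosome and takes up IGF2, had 423, 423 and 415 CPM in the scrambled-labelled libraries, with 239, 234 and 247 CPM in the *Pgam*-labelled ones. The libraries of each label lay close together and far from the other label. The log2FC was -0.81 (SE 0.075; edgeR adjusted p 4.01e-04), and the adjusted p stayed at or under 0.0117 with each library left out. *Scarb2*, which encodes LIMP-2, the carrier of glucocerebrosidase, averaged 74.5 ± 6.82 and 46.1 ± 6.32 CPM (SD, n = 3; log2FC -0.69, edgeR adjusted p 0.00600). *Npc2*, the soluble protein that hands cholesterol to NPC1, averaged 269.9 ± 11.7 and 192 ± 17.9 CPM (SD, n = 3; log2FC -0.49, edgeR adjusted p 0.00955). The edgeR adjusted p of *Scarb2* was 0.0524 without P2, and that of *Npc2* 0.0674 without P2. Their log2FCs stayed from -0.80 to -0.62 and from -0.56 to -0.43.

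The proton pump, the V-ATPase that acidifies the lysosome, did not share the direction of the proteases. Of its 3 members, *Atp6v1a*, which encodes the catalytic A subunit, had 130.4, 109.5 and 142 CPM in the scrambled-labelled libraries, with 161, 158 and 154 CPM in the *Pgam*-labelled ones. All 3 *Pgam*-labelled libraries were above the others, but *Atp6v1a* did not pass edgeR's test (log2FC 0.31, SE 0.10, adjusted p 0.0573), while DESeq2 gave an adjusted p of 0.0395 and edgeR one of 0.0220 without S3. *Atp6v0d1* and *Atp6v1h* had log2FCs of -0.06 and 0.058 and groups that overlapped. With the 14 subunits and accessory proteins of the other list, 13 of 17 genes had positive log2FCs, with a median of 0.11, which stayed between 0.073 and 0.11 in DESeq2, limma-voom and edgeR with RLE or library size scaling. The groups did not overlap in 8 of the 17 with higher expression, or 47.1%, beside 19.6% of all tested genes, and in 1 with lower, beside 19.8%. In edgeR 1 of the 17 was called higher and 1 lower (5.88% each), under the 8.03% and 9.15% of all tested genes. In DESeq2 4 were called higher and 1 lower, where 10.3% and 11.1% of all tested genes were. Of the 14 on the other list, edgeR called 3 higher without S3 and without P3. *Atp6v0a2*, an a subunit of the membrane sector, averaged 65.4 ± 2.59 and 84.9 ± 7.27 CPM (SD, n = 3; log2FC 0.38, edgeR adjusted p 0.0233). *Atp6v1d*, the D subunit of the central shaft, averaged 85.0 ± 11.8 and 63.6 ± 3.06 CPM (SD, n = 3; log2FC -0.42, edgeR adjusted p 0.0283). Both calls were lost with single libraries left out, while the log2FC stayed from 0.31 to 0.44 and from -0.48 to -0.30. For *Atp6v0a2* the edgeR adjusted p was 0.0884 without S1, 0.0825 without P1 and 0.0985 without P2, and for *Atp6v1d* 0.0682 without S1, 0.0623 without S2, 0.0944 without P1 and 0.118 without P2. Summed over the 17 genes, expression was 1101, 1074 and 1161 CPM against 1247, 1233 and 1180 CPM, so that every *Pgam*-labelled library was above every scrambled-labelled library. The difference between proteases and pump was not tested.

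**Figure D2:**
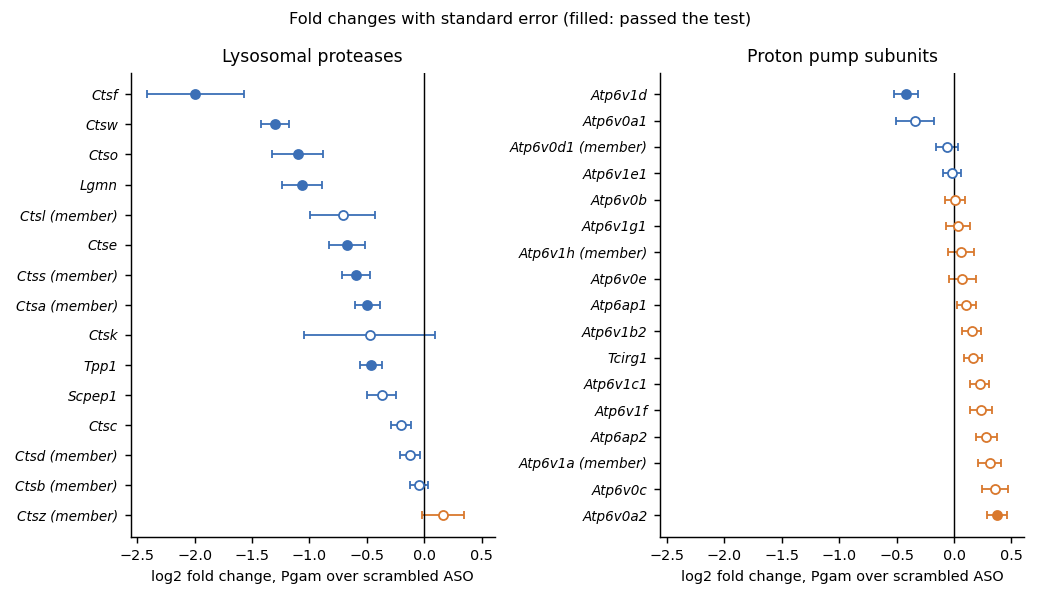
Log2 fold change with its SE (x axis) for the 15 tested proteases and the 17 proton pump genes (y axis), members and other genes together. Of the proteases 8 passed the test (filled points) and all of these lay below 0, while 13 of the 17 pump genes lay above 0 with 1 filled on either side.

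In the step that marks and encloses cargo, 2 of 5 members were called lower (40.0%, beside 9.15% of all tested genes). *Sqstm1* (ENSMUSG00000015837, chromosome 11, 50199366 to 50210827) encodes p62, the receptor that links ubiquitinated cargo to ATG8 proteins and is itself degraded by autophagy. It had 130.4, 144 and 129 CPM in the scrambled-labelled libraries and 97.8, 104 and 109.6 CPM in the *Pgam*-labelled ones. Replicates of each label were close and the groups stood apart. The means were 135 ± 8.44 and 104 ± 5.93 CPM (SD, n = 3), 1.30-fold lower, with a log2FC of -0.37 (SE 0.085; edgeR adjusted p 0.0197). The adjusted p of *Sqstm1* was 0.0683 without S1, 0.0741 without P1 and 0.0963 without P2, with log2FCs of -0.41 to -0.32 over all 6 such fits. It overlaps *Mrnip*, with which it shares 16.3% of its 31-base stretches, and its log2FC was -0.37 with the counts of both summed (edgeR adjusted p 0.0210). *Map1lc3b* (ENSMUSG00000031812, chromosome 8, 121590361 to 121598760) encodes LC3B, the ATG8 protein most used to follow autophagosomes. It had 97.6, 111 and 94.6 CPM against 57.6, 67.0 and 78.6 CPM. The groups were apart, with P1 the lowest. The means were 101 ± 8.51 and 67.8 ± 10.5 CPM (SD, n = 3), 1.49-fold lower, with a log2FC of -0.57 (SE 0.12; edgeR adjusted p 0.0138), and the adjusted p was 0.0508 without S1 and 0.0820 without P2. With each library left out, the log2FC of *Map1lc3b* was -0.69 to -0.47.

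The other ATG8 genes were not called. *Gabarapl1*, *Gabarapl2* and *Map1lc3a* had log2FCs of -0.20, 0.15 and -0.50, of which *Gabarapl1* and *Gabarapl2* share 25.2% and 15.3% of their 31-base stretches with other genes. To compare levels between genes, CPM was divided by the mean length of the coding transcripts in kilobases. On that scale *Gabarap*, an ATG8 gene of the other list named after its values were seen, stood above these members, at 128 CPM per kb with the scrambled ASO and 118 with the *Pgam* ASO. *Map1lc3b* came first of the 4 ATG8 members, at 60.2 CPM per kb with the scrambled ASO, ahead of *Gabarapl1* at 45.1, *Gabarapl2* at 28.5 and *Map1lc3a* at 5.92. With the *Pgam* ASO the level of *Map1lc3b* was 40.4 CPM per kb, beside 39.3 for *Gabarapl1* and 31.5 for *Gabarapl2*. *Map1lc3b* and *Gabarapl1* thus came close, *Gabarapl1* having an SD of 5.68 CPM per kb and *Map1lc3b* one of 6.26 over 3 libraries. On the list of 9 other ATG8 and conjugation genes, 1 was lower and 1 higher (11.1% each). These shares were near the 9.15% and 8.03% of all tested genes. *Atg12*, the ubiquitin-like protein joined to ATG5, averaged 48.8 ± 8.30 and 32.1 ± 5.53 CPM (SD, n = 3; log2FC -0.61, edgeR adjusted p 0.0273). *Atg4d*, a protease that processes ATG8 proteins, had a log2FC of 0.34 (edgeR adjusted p 0.0499), and was not called by limma-voom, with library size alone or with at least 10 counts in every library. The edgeR adjusted p of *Atg12* was 0.0828 without S1, 0.0691 without S2, 0.0890 without P1 and 0.113 without P2, and that of *Atg4d* 0.154 without S1, 0.119 without S2, 0.165 without P1, 0.0772 without P2 and 0.0851 without P3. In these fits the log2FC was -0.73 to -0.47 for *Atg12* and 0.28 to 0.43 for *Atg4d*.

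Among 15 other receptors and fusion factors, 3 were called lower and 0 higher (0 in DESeq2, in limma-voom and at an unadjusted p under 0.05 in edgeR). In edgeR the 3 became 0 without S1 or P2, with 4 at an unadjusted p under 0.05 in each fit. *Calcoco1*, a receptor for autophagy of the endoplasmic reticulum, averaged 58.1 ± 10.4 and 22.1 ± 10.2 CPM (SD, n = 3; log2FC -1.40, edgeR adjusted p 0.0306), and was not called without the filter. *Tecpr1*, which helps autophagosomes join lysosomes, had 278, 368 and 218 CPM in the scrambled-labelled libraries, with 99.2, 122 and 157 CPM in the *Pgam*-labelled ones. It varied widely within each label, yet the groups did not overlap (log2FC -1.19, SE 0.22, edgeR adjusted p 0.0164). *Nbr1*, a receptor related to p62, averaged 97.7 ± 2.46 and 74.8 ± 6.47 CPM (SD, n = 3; log2FC -0.38, edgeR adjusted p 0.0196). With single libraries left out, the log2FC stayed from -1.82 to -1.15 for *Calcoco1*, -1.37 to -0.97 for *Tecpr1* and -0.45 to -0.33 for *Nbr1*, while calls were lost. The edgeR adjusted p was 0.0790 without S1, 0.134 without S2, 0.0530 without S3 and 0.114 without P2 for *Calcoco1*. For *Tecpr1* it was 0.0527 without S1 and 0.0758 without P2, and for *Nbr1* 0.0828 without S1, 0.0732 without P1 and 0.102 without P2. The median log2FC of the 15 was -0.15, and close to 0 (0.000184) without P1.

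Of 7 members in autophagy initiation and conjugation, 2 were called lower (28.6%, beside 9.15% of all tested genes). *Wipi1* (ENSMUSG00000041895, chromosome 11, 109573331 to 109611967) encodes a protein that binds phosphatidylinositol 3-phosphate on the membrane from which autophagosomes grow. It had 3.71, 5.29 and 3.10 CPM in the scrambled-labelled libraries and 0.807, 1.54 and 1.72 CPM in the *Pgam*-labelled ones, from counts of 66, 98 and 50 against 13, 24 and 29. This was the largest fold among the members and also the lowest level among those called. The means were 4.04 ± 1.13 and 1.35 ± 0.482 CPM (SD, n = 3), 2.97-fold lower, with a log2FC of -1.57 (SE 0.34; edgeR adjusted p 0.0173). The adjusted p of *Wipi1* was 0.0559 without S1, 0.0532 without P1 and 0.0765 without P2, with log2FCs of -1.77 to -1.30 over all 6 such fits. *Ulk1* (ENSMUSG00000029512, chromosome 5, 110784488 to 110810097) encodes the kinase at the head of the pathway. It had 66.5, 80.7 and 62.5 CPM against 42.2, 43.7 and 53.4 CPM. S2 stood highest, and the groups did not overlap. The means of *Ulk1* were 69.9 ± 9.57 and 46.4 ± 6.05 CPM (SD, n = 3), 1.51-fold lower, with a log2FC of -0.59 (SE 0.13; edgeR adjusted p 0.0154). Its adjusted p was 0.0510, 0.0568 and 0.0912 without the same 3 libraries in turn, and its log2FC -0.70 to -0.47 over the 6 fits.

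**Figure D3:**
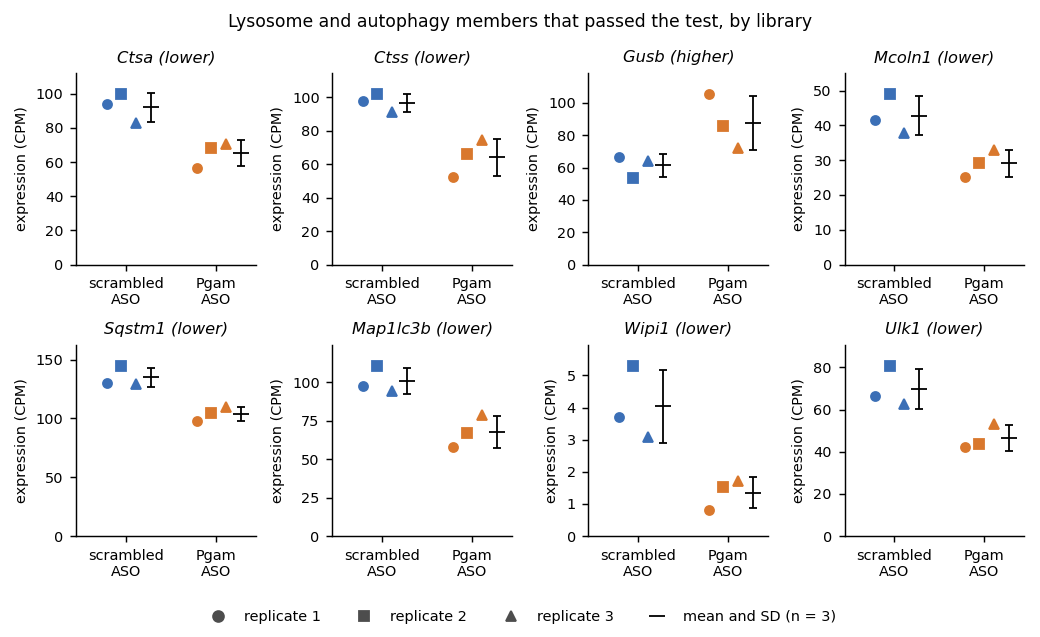
Expression in CPM (y axis) of the 8 members that passed the test in the 3 scrambled-labelled libraries (blue) and the 3 labelled *Pgam* ASO (orange), with marker shapes for replicates and black bars for the mean and SD. In the 7 lower members every orange point is below every blue point, and in *Gusb* every orange point is above.

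*Ulk2*, the close relative of *Ulk1*, had a log2FC of -0.36 and groups that overlapped (edgeR adjusted p 0.123). It passed edgeR's test without S3 (adjusted p 0.0326) and without the filter on low counts. Among the conjugation genes, the members *Atg5*, *Atg7* and *Atg16l1* were not called. These, whose products attach ATG8 proteins to lipid, had log2FCs of -0.17, -0.024 and 0.041, and *Becn1*, a subunit of the lipid kinase complex of initiation, had one of 0.081. Of the 31-base stretches of *Becn1*, 40.0% are also in other genes, chiefly the overlapping *Cntd1*. Upstream of conjugation, 6 of 15 other initiation genes were called lower (40.0%) and 0 higher, beside 9.15% and 8.03% of all tested genes. The number higher was 1 in DESeq2, 0 in limma-voom and 1 at an unadjusted p under 0.05 in edgeR. The 6 lower became 1 without S1, 3 without P1, 1 without P2 and 4 without S2, and without S2 1 was higher. *Wdr45*, which encodes WIPI4, a relative of WIPI1, averaged 22.1 ± 3.97 and 10.8 ± 3.16 CPM (SD, n = 3; log2FC -1.04, edgeR adjusted p 0.0138). *Atg14*, which directs the lipid kinase complex to autophagy, averaged 17.3 ± 2.28 and 9.89 ± 1.24 CPM (SD, n = 3; log2FC -0.81, edgeR adjusted p 0.0112). *Rb1cc1*, for FIP200, the scaffold of the ULK1 complex, averaged 80.5 ± 8.66 and 47.4 ± 8.45 CPM (SD, n = 3; log2FC -0.76, edgeR adjusted p 0.00730). The calls therefore included the kinase *Ulk1* and its scaffold. In edgeR the adjusted p of *Wdr45* was 0.0503 without S1 and 0.0784 without P2, that of *Atg14* 0.0517 without S1 and that of *Rb1cc1* 0.0569 without P2. The log2FC of *Wdr45* stayed from -1.27 to -0.84, that of *Atg14* from -0.90 to -0.71 and that of *Rb1cc1* from -0.90 to -0.65.

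Over all 8 lists of other lysosome and autophagy genes, 112 of 114 passed the filter. Of these, 25 were called lower (22.3%) and 3 higher (2.68%), beside 9.15% and 8.03% of all tested genes. The median log2FC of the 112 was -0.17. The shares of these lists were close to those of the members. The lists were written with results of these libraries known, so the likeness is not independent of them. Of the 25 lower genes, *Ctsw*, *Lgmn* and *Igf2r* had an edgeR adjusted p under 0.05 with each of the 6 libraries left out in turn, and *Lgmn*, for the protease legumain, was named after its values were seen. The number called lower went from 25 to 7 without S1, to 4 without P2 and to 12 without P1. The number called higher went from 3 to 0 in each of these and to 2 and 5 without S2 and S3.

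**Figure D4:**
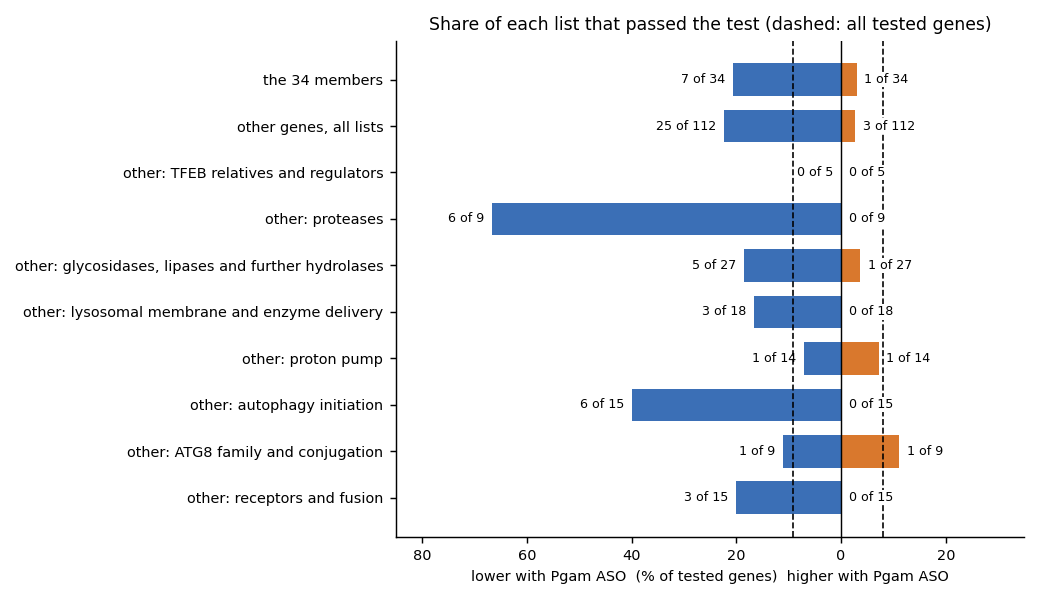
Percentage of tested genes called lower (blue, left) or higher (orange, right) in the 34 members, in all other genes and in each of the 8 other lists, with counts beside the bars and dashed lines at the shares over all tested genes, 9.15% lower and 8.03% higher. The proteases had the longest bar to the left, at 6 of 9, and the proton pump had 1 of 14 on each side.

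Per kilobase of transcript, *Ctsz* and *Psap* had the highest levels of the 34 members under both labels. *Ctsz* had 136 CPM per kb with the scrambled ASO and 152 with the *Pgam* ASO, and *Psap* had 118 and 99.2. *Sqstm1* ranked 3 of 34 by level with the scrambled ASO and 6 with the *Pgam* ASO, and *Ctss* went from rank 4 to rank 7. *Gusb* moved the other way, from rank 15 to rank 8, with 32.6 and 46.5 CPM per kb. *Atp6v1a* went from rank 6 to rank 3. At the low end, *Wipi1*, *Mitf* and *Cd63* had under 2 CPM per kb under either label.

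The libraries of a label differed along an order shared by called genes at large, and the 7 lower members followed it. In each of the 7, S2 was the highest and S3 the lowest scrambled-labelled library, while P1 was the lowest and P3 the highest *Pgam*-labelled library. Summed over the 7, expression was 532, 591 and 501 CPM in the scrambled-labelled libraries, and 332, 380.4 and 421 CPM in the *Pgam*-labelled ones. Of the 25 other genes called lower, S2 was the highest of its label in 18 and S3 the lowest in 20, while P1 was the lowest of its label in 20 and P3 the highest in 22. Of the 1366 genes called lower over the whole table, S2 was the highest of its label in 75.6% and S3 the lowest in 69.0%, while P1 was the lowest in 63.3% and P3 the highest in 68.7%. Of the 1199 called higher, S2 was the lowest of its label in 83.8% and P1 the highest in 67.4%. The order is thus a trait of these libraries over all called genes, not one of lysosome and autophagy genes. The TMM scaling factors followed the same order, at 1.0122, 1.029 and 0.9961 for the scrambled ASO and 0.9721, 0.9842 and 1.0074 for the *Pgam* ASO. With library size alone in place of TMM, the same 7 members were called lower, and *Lamp2* as well. The direction and the calls thus did not need the factors. What made the libraries of a label differ was not tested.

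Because lysosomal genes are abundant in myeloid cells and *Ctss* also in B cells, markers of other cell types were read in the same libraries. All 9 T cell markers were present and tested, with sums of 2959, 3223 and 2716 CPM with the scrambled ASO and 2441, 2416 and 2490 CPM with the *Pgam* ASO, led by *Cd4* at a mean of 718 CPM. *Cd28* and *Cd5* were called lower (log2FCs -0.66 and -0.49, edgeR adjusted p 0.00183 and 0.0193), so markers of the T cells themselves were among the genes that fell. The call of *Cd5* was lost at 0.0678 without S1 and 0.106 without P2, and that of *Cd28* with none of the 6 left out. The log2FC of *Cd5* stayed from -0.56 to -0.39. Macrophage and monocyte markers were close to 0, with 7 of 9 under 1 CPM in every library and sums of 3.21, 3.62 and 2.04 CPM and 2.86, 2.57 and 3.19 CPM. The most abundant was *Lyz2*, at 1.32 CPM. Dendritic cell markers summed to 7.03, 6.97 and 7.87 CPM and 6.89, 5.45 and 4.20 CPM, led by *Zbtb46*, with *Clec9a* and *Siglech* at 0 counts. Neutrophil markers summed to 2.70, 1.30 and 0.991 CPM and 3.66, 2.57 and 2.01 CPM, led by *S100a9*, and erythroid markers to 2.76, 2.32 and 1.43 CPM and 1.30, 1.86 and 1.60 CPM, led by *Alas2*. The filter kept 2 of 9 macrophage and monocyte, 1 of 6 dendritic cell, 2 of 5 neutrophil and 2 of 4 erythroid markers. Of those tested in these 4 lists, 0 were called by edgeR, DESeq2 or limma-voom. At an unadjusted p under 0.05 in edgeR, 1 (*Zbtb46*) was lower. The part of these cell types in the members' result was not tested.

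B cell markers ordered the libraries as the lower members did. They summed to 329, 458 and 223 CPM in the scrambled-labelled libraries and 86.4, 120.4 and 150.1 CPM in the *Pgam*-labelled ones. Nearly all of this was *Ighm*, at 319.9, 447 and 216 CPM against 75.6, 111 and 142 CPM (log2FC -1.58, edgeR adjusted p 0.0282), the only 1 of 6 tested B cell markers that passed edgeR's test. Its adjusted p was 0.0792 without S1, 0.0954 without S2, 0.0639 without P1 and 0.102 without P2, with log2FCs of -1.80 to -1.29 over the 6 fits. The markers *Ms4a1*, *Pax5*, *Blk* and *Cd79b* had at most 2.97 CPM in any library, and *Cd79a* at most 5.35 CPM. The part of *Ighm* transcripts, or of the cells that made them, in the members' result was not tested. Mast cell and basophil markers summed to 6.92, 7.72 and 7.93 CPM and 7.64, 6.54 and 6.75 CPM, with *Kit* lower (log2FC -1.68, edgeR adjusted p 0.0142) and *Gata2* higher (log2FC 1.59, edgeR adjusted p 0.0469). *Cpa3* had a log2FC of 1.09 and groups that did not overlap (edgeR adjusted p 0.0526, DESeq2 adjusted p 0.0480). *Mcpt8* and *Fcer1a*, which did not pass the filter, were also higher without overlap, while *Ms4a2* overlapped. NK cell markers summed to 52.6, 32.2 and 55.0 CPM and 28.3, 26.9 and 24.1 CPM, nearly all *Eomes* (log2FC -0.82, edgeR adjusted p 0.0214), with *Klra8* and *Klrb1c* at 0 counts. CD8 T cell markers summed to 11.2, 13.5 and 10.8 CPM and 14.6, 10.9 and 15.7 CPM, with *Cd8a* higher (log2FC 1.12, edgeR adjusted p 0.0286) and *Cd8b1* not called. With single libraries left out, the log2FC stayed from -2.20 to -1.37 for *Kit*, 1.01 to 1.83 for *Gata2*, -1.03 to -0.68 for *Eomes* and 0.94 to 1.35 for *Cd8a*, while calls were lost, with edgeR adjusted p for *Kit* of 0.0506 without S1 and 0.0851 without P2 and for *Gata2* of 0.120 without S1, 0.123 without S2, 0.0643 without S3, 0.221 without P1 and 0.101 without P2. For *Eomes* it was 0.0766 without S1, 0.0530 without P1 and 0.0893 without P2, and for *Cd8a* 0.0989 without S1 and 0.100 without P1. The part of these cell types was likewise not tested.

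Since TFEB and its relatives bind E-boxes, the members' promoters were searched for the E-box CACGTG and for the longer palindrome TCACGTGA, the core of the CLEAR element of lysosomal genes, which contains the E-box. Both read the same on either strand. The promoters were 300-base stretches from RefSeq on GRCm38.p6, from 250 bases before to 50 bases after a start site, and 29 of the 34 members were in that table. *Atp6v1h*, *Atg16l1*, *Ctsb*, *Becn1* and *Map1lc3a* were not in it. The E-box was present in 11 members (37.9%), where 8.09% of the 27025 genes in the table and 7.15% of its 32851 promoters held it. The longer palindrome was present in 6 (20.7%), namely *Ctsa*, *Ctsd*, *Mcoln1*, *Atp6v0d1*, *Atp6v1a* and *Gla*, where 1.12% of genes and 0.97% of promoters held it. These shares of genes and promoters cover the table whether or not a gene was tested, while every member passed the filter. Among tested genes in the table, 225 held the longer palindrome, 943 the E-box alone and 8848 neither. A match shows that these letters are present, not that a factor was bound. The promoters of the called members with the longer palindrome are given 5′ to 3′ on the strand of the gene, since they carry the motif and the difference together, with capitals for each E-box and, where it is complete, the longer palindrome.
*Ctsa*, chr2:164833523-164833822, plus strand: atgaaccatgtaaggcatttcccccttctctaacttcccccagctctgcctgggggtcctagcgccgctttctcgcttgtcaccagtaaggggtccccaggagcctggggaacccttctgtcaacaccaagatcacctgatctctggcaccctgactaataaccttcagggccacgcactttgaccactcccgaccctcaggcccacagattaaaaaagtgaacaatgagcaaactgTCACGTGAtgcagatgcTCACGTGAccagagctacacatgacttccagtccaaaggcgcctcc
*Mcoln1*, chr8:3500269-3500568, plus strand: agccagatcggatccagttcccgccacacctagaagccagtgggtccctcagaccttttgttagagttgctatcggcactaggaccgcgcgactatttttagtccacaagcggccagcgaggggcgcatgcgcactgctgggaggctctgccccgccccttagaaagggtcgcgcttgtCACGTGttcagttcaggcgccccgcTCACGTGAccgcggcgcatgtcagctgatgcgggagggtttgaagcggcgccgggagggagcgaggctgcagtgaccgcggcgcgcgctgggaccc

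In *Ctsa* the first base of the palindromes lay 13 bases before and 4 bases after the start site, 1 on each side. In *Mcoln1* the palindrome began 46 bases before it, and an E-box in which the last base of the palindrome differs stood farther upstream. The other annotated start of *Ctsa* had neither motif in its window.

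Called members were found with and without the motifs. Of the 6 with the longer palindrome, 2 were called lower and the median log2FC was -0.092, with values from -0.56 in *Mcoln1* to 0.31 in *Atp6v1a*. Of the 5 with the E-box alone (*Lamp1*, *Glb1*, *Atg5*, *Atg7* and *Ctsl*), 0 were called in edgeR, DESeq2 or limma-voom, 1 had an unadjusted p under 0.05 in edgeR, and the median was -0.10. Of the 18 with neither, 5 were lower and 1 higher, with a median of -0.22, and these include *Ulk1*, *Wipi1*, *Map1lc3b*, *Sqstm1* and *Ctss*. Over all tested genes in the table, 10.2% of the 225 with the longer palindrome were lower and 6.22% higher, with a median log2FC of -0.055. Among the 943 with the E-box alone, 10.3% were lower and 12.9% higher. Among the 8848 with neither, the shares were 9.98% and 8.70%. These differences between motif classes were not tested.

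**Figure D5:**
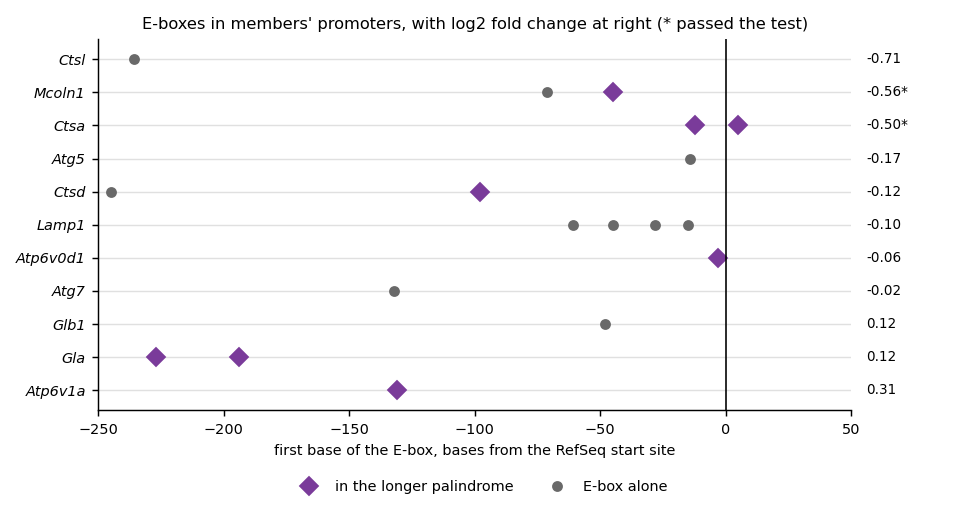
Place of each E-box in the promoters of the 11 members that held it, as the distance of its first base from the RefSeq start site in bases (x axis), with members ordered by log2FC (y axis, values at right). Diamonds (E-boxes within the longer palindrome) are found from the lower to the upper end of the order, circles are E-boxes alone, and an asterisk marks the 2 members that passed the test.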

How the data were processed

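RNA of 6 libraries of CD4 T cells was compared, 3 with the scrambled ASO label and 3 with the *Pgam* ASO label. By their processing notes, the authors ran Kallisto on reads of polyA RNA with GRCm38 as the assembly and deposited estimated counts for each gene, already whole numbers; the Kallisto version, the annotation and the way transcripts were added up to genes are not given in the sources used here. From these counts, CPM and log2 fold changes were computed with edgeR 4.0.16 (R 4.3.3), using the default filter on low counts, TMM factors, the quasi-likelihood test with robust dispersion and p-values adjusted by Benjamini-Hochberg across the whole set of 14936 tested genes, with calls at an adjusted p under 0.05. The code was tested on simulated data. Members and lists were chosen with earlier results of these data known. Gene places and transcript lengths came from GENCODE M21, promoters from RefSeq on GRCm38.p6. Values in every library are given for the 2 targets, for each called member and for *Tfeb*, *Tfe3* and *Mitf*; other members get a fold change, a range or a count by role. Of each list of other genes (TFEB regulators, proteases, hydrolases, membrane and enzyme delivery, proton pump, initiation, ATG8 and conjugation, receptors and fusion), the counts called are given with up to 3 called genes of largest log2 fold change in each direction. Some genes of these lists are not reported here. Alternatives were DESeq2 1.42.0, limma-voom (limma 3.58.1), RLE factors, library size alone, no filter, a block for the replicate number, at least 10 counts in every library, omission of each library in turn, an adjusted p under 0.01, a fold change of at least 1 on the log2 scale in either direction, and counts summed with genes that share at least 10% of 31-base stretches. Cell type markers and shared stretches were read as checks. Identity between ATG8 proteins was not analysed here.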

Additional observations from a re-analysis of the deposited data

How the results depend on the processing

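The number of calls changed more with the threshold and with a library left out than with tool or scaling. Over all tested genes edgeR called 2565, and 453 at an adjusted p under 0.01, 674 with a log2 fold change of at least 1 in either direction, and 391 to 3484 with a library left out. Members called lower numbered 7, and 8 without a filter (*Ulk2* added) and with library size alone (*Lamp2* added). They numbered 0 at an adjusted p under 0.01, 1 (*Wipi1*) with the fold threshold and 0 to 9 with a library left out. Members called higher numbered 1, and 2 in DESeq2 and without a filter (*Atp6v1a* added), 0 at either stricter threshold and 0 to 2 with a library left out. RLE factors, limma-voom and at least 10 counts in every library gave the same 7 and 1. With replicate numbers as a block, 1235 genes and 6 members lower were called, *Sqstm1* not. Whether equal numbers share an animal or a culture day is not given by the labels. Deviations of equal numbers correlated at 0.0534, -0.034 and -0.2367, and with 3 libraries of each label these values cannot settle it. Of members near 0, the sign turned with libraries left out: the log2 fold change ran from -0.095 to 0.041 for *Tfeb*, -0.025 to 0.36 for *Ctsz*, -0.079 to 0.37 for *Gla*, -0.15 to 0.68 for *Cd63*, -0.10 to 0.0087 for *Atp6v0d1*, -0.034 to 0.11 for *Atp6v1h* and -0.072 to 0.028 for *Atg7*. Summed with genes that share reads, it was 0.12 for *Ctsb*, which then holds the counts of *Fdft1*, and -0.28 for *Cd63*. The cause of the differences between libraries was not tested.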
